A study of Homo sapiens with 6 samples.

Results

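The genes described here are 9 very long human genes that lie in common fragile sites: FHIT, WWOX, IMMP2L, MACROD2, NAALADL2, DMD, LRP1B, AUTS2 and EXOC4. They were chosen by name and not by a cutoff on their values, but with earlier results of these data known. Of the 25827 features in the deposited read table, 6 were members (NAALADL2, IMMP2L, EXOC4, WWOX, LRP1B and MACROD2), and all 6 passed the filter on low values. Read values of FHIT, DMD and AUTS2 were not analysed here, and these genes were followed in the deposited signal profiles, which held all 9. Nascent RNA was measured by PRO-seq, which maps RNA polymerases that are engaged on DNA by sequencing the RNA they are making. SBC-3, an established small cell lung cancer line of wild-type genotype, was reverse transfected at 10 nM with a control siRNA (siCtrl) or with an SFPQ siRNA, of which there were 2, named siSFPQ-2 and siSFPQ-3. Cells were collected 72 h later, with 2 libraries for each of the 3 siRNAs. The study asked how SFPQ bears on the transcription and stability of primary microRNA transcripts, and the question here is how engaged polymerase along the fragile site genes differed after the knockdown.

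Common fragile sites are chromosome regions that show gaps and breaks on metaphase chromosomes when DNA replication is slowed. Many of them coincide with the longest genes of the genome, in which transcription of a full transcript takes many hours and can meet late or unfinished replication, and they are frequent places of deletion in tumours. SFPQ is an RNA- and DNA-binding protein of nuclear paraspeckles that has been linked to elongation through long genes.

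The members span 847874 bases (EXOC4) to 2220167 bases (DMD) in RefSeq on GRCh38.p14. FHIT encodes a hydrolase of diadenosine polyphosphates and lies at chr3:59747277-61251452. WWOX encodes a WW domain oxidoreductase and lies at chr16:78099654-79212667. NAALADL2, a relative of glutamate carboxypeptidase, lies on the other arm of chromosome 3 from FHIT at chr3:174440982-175810548. IMMP2L encodes a subunit of the inner mitochondrial membrane peptidase and lies at chr7:110662644-111562492. The same chromosome holds AUTS2, a gene of neural development whose protein joins a Polycomb complex, at chr7:69598475-70793506, and EXOC4, a subunit of the exocyst that tethers secretory vesicles, at chr7:133253078-134100951. MACROD2, which encodes an enzyme that removes ADP-ribose from proteins, lies at chr20:13995516-16053197. LRP1B, a giant receptor of the LDL receptor family, lies at chr2:140231423-142131016, and DMD, the dystrophin gene, at chrX:31119222-33339388.

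The 6 libraries held 12072813 to 18475158 reads recovered from the table, and 1 read was worth 0.797 to 1.11 normalized reads. Whether libraries of the same siRNA were grown as independent cultures is not in the labels, and the p-values thus cover the spread between these libraries, which may be technical. The nascent reads of SFPQ itself were 2294 and 2435 in siCtrl, 1825 and 1972 in siSFPQ-2 and 1922 and 2466 in siSFPQ-3, and the change did not pass the test (log2 change -0.22, SE 0.11, limma adjusted p = 0.137). An siRNA acts on RNA that has already been made, so these values do not check the knockdown. Of 10 neuroendocrine markers, 4 were tested, and their list's summed reads were 424 to 457 in siCtrl and 295 to 520.4 in siSFPQ, with a median log2 change of -0.75. DLL3, a Notch ligand of that list, passed as lower (-0.83, limma adjusted p = 0.0073), but not without siCtrl replicate 1 (0.0555) or siCtrl replicate 2 (0.0744), and NEUROD1 differed by -0.94 (adjusted p = 0.0506). The defining markers INSM1 and NCAM1 were not analysed here. YAP1, a marker of another small cell state, had 3084 ± 323 (SD, n = 2) normalized reads in siCtrl and 5121 ± 357 (SD, n = 4) in siSFPQ. POU2F3, the marker of a further state, went the other way (log2 change -0.54, limma adjusted p = 0.0216), a call lost without siCtrl replicate 1 (0.086), without siCtrl replicate 2 (0.153) and with DESeq2 (0.0641). Summed reads of 3 epithelial markers were 921 to 1016 in siCtrl and 2207 to 2717 in siSFPQ, those of 2 fibroblast markers 224 to 255 and 411 to 582, and ACTA1, a muscle actin gene, had 37.5 to 43.2 and 71.9 to 86.4. No immune or endothelial marker was analysed here. The part of these shifts in the other results was not tested, and in a bulk culture a change in the mix of cells cannot be told apart from a change in each cell.

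After SFPQ knockdown the fragile site genes did not move together. Of the 6 tested members, 2 rose (IMMP2L and EXOC4), 3 fell (NAALADL2, WWOX and LRP1B) and MACROD2 did not pass the test. The background was high in both directions, with 24.8% of the 21773 tested features higher and 23.2% lower, or 48.0% in either direction. With so high a background the count of members called is not a result about the fragile site genes, and the description rests on the size of each change and its course along the gene. The test was limma on log2(normalized reads + 1), with Benjamini-Hochberg adjustment over all tested features and a threshold of 0.05. On that scale the change of a gene with few reads is understated.

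NAALADL2 showed the largest difference of the members, and all 4 knockdown libraries stood far below both controls. Its normalized reads were 2800 and 2217 in siCtrl, 529 and 279 in siSFPQ-2, and 600.2 and 310 in siSFPQ-3. The groups did not overlap. The mean fell from 2508 ± 412 (SD, n = 2) to 429 ± 159 (SD, n = 4), which is a log2 change of -2.61 (SE 0.27, limma adjusted p = 3.45e-05), or 6.11-fold lower. The change was -2.69 with siSFPQ-2 and -2.53 with siSFPQ-3, and the siRNAs share their controls. Among the 186 tested features with a RefSeq span of at least 500 kb, the log2 change of NAALADL2 was the lowest.

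IMMP2L moved the other way. Its normalized reads were 1678 and 1566 in siCtrl, 2680 and 2717 in siSFPQ-2, and 4037 and 3560 in siSFPQ-3. Both siRNA groups lay above both controls, and both siSFPQ-3 libraries lay above both siSFPQ-2 libraries. The mean rose from 1622 ± 79.2 (SD, n = 2) to 3248 ± 664 (SD, n = 4), which is a log2 change of 0.98 (SE 0.10, limma adjusted p = 2.47e-05), or 1.97-fold. The change was 0.73 with siSFPQ-2 and 1.22 with siSFPQ-3, and the difference between the siRNAs, 0.49 (SE 0.11), did not pass the limma test (adjusted p = 0.118). It passed with DESeq2 on the recovered reads (adjusted p = 0.0186). IMMP2L stood 31st from the highest of the 186 long features. Of the 6 members, 0 passed the limma test of the difference between the siRNAs, IMMP2L was the 1 member with an unadjusted p under 0.05, and 0.0781% of tested features passed as higher and 0.0230% as lower, 0.101% in all. With DESeq2 the count was 1, and with edgeR it was 0. The shares just given are those of limma, and those of DESeq2 and edgeR are not given here.

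EXOC4 rose by a smaller amount in all 4 knockdown libraries. Its normalized reads were 2816 and 2456 in siCtrl, 3691 and 3579 in siSFPQ-2, and 4244 and 3452 in siSFPQ-3. The lowest knockdown library lay above the higher control. The mean went from 2636 ± 254 (SD, n = 2) to 3742 ± 349 (SD, n = 4), which is a log2 change of 0.50 (SE 0.11, limma adjusted p = 0.00435), or 1.42-fold. The call rested on the second control: without siCtrl replicate 2 the change was 0.41 with an adjusted p of 0.0775.

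WWOX and LRP1B fell by similar amounts. WWOX had 649 and 599 normalized reads in siCtrl, 449 and 375 in siSFPQ-2, and 481 and 376 in siSFPQ-3. Its mean went from 624 ± 34.9 (SD, n = 2) to 420.3 ± 53.2 (SD, n = 4), which is a log2 change of -0.58 (SE 0.13, limma adjusted p = 0.00397), or 1.49-fold lower. LRP1B had 560.3 and 624 in siCtrl, 400.2 and 421 in siSFPQ-2, and 476 and 395 in siSFPQ-3. Its mean went from 592 ± 44.8 (SD, n = 2) to 423 ± 37.3 (SD, n = 4), which is a log2 change of -0.49 (SE 0.11, limma adjusted p = 0.00517), or 1.40-fold lower. In neither gene did the groups overlap. Each call was lost without 1 control library: WWOX without siCtrl replicate 1 (-0.52, adjusted p = 0.0633) and LRP1B without siCtrl replicate 2 (-0.41, adjusted p = 0.0875). WWOX stood 24th and LRP1B 27th from the lowest of the 186 long features.

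In the read table MACROD2 was close to the floor, and its higher rank by profile signal is given below. It had 11.2 and 6.65 normalized reads in siCtrl, 8.91 and 5.54 in siSFPQ-2, and 5.38 and 11.1 in siSFPQ-3, which are 5 to 14 whole reads. The groups overlapped, and the log2 change of -0.20 (SE 0.45, limma adjusted p = 0.740) did not pass the test. A difference of the size seen for WWOX or LRP1B was not detectable for MACROD2 at this depth.

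**Figure D1:**
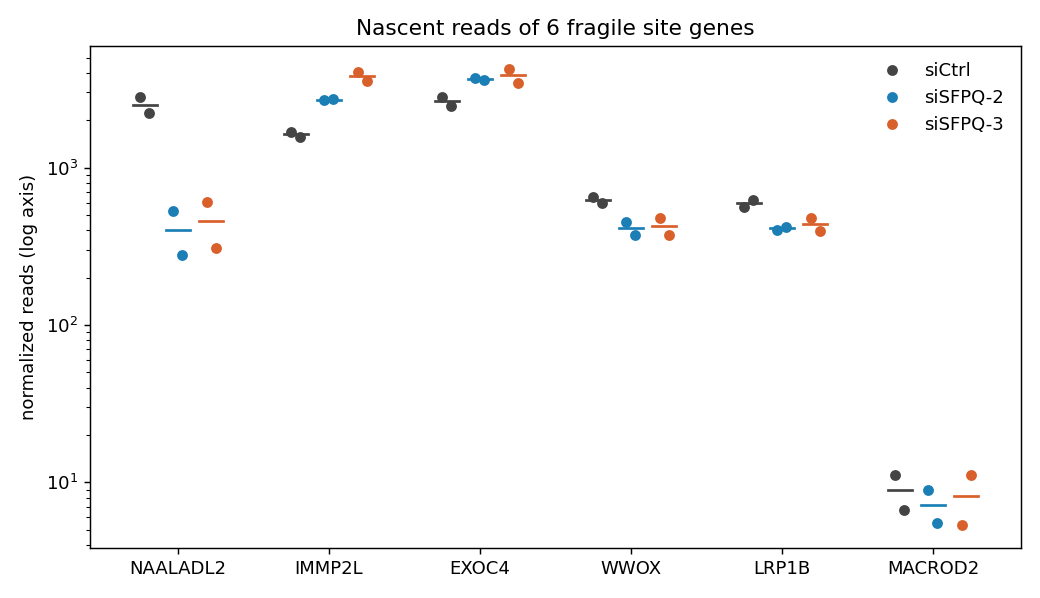
Normalized reads (log axis) of the 6 fragile site genes in the read table, with 1 point per library, colours for the 3 siRNAs and a line at each group mean. NAALADL2 falls from 2217 or more in siCtrl to 600.2 or less after knockdown, IMMP2L and EXOC4 lie above their controls, WWOX and LRP1B below, and MACROD2 overlaps.

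Each siRNA alone called the same 5 members in the same directions. With siSFPQ-2, 21.2% of all features passed as higher and 17.9% as lower (39.2% in either direction), and with siSFPQ-3 the shares were 23.0% and 20.4% (43.4%). Leaving out 1 library gave 1 to 2 members higher and 2 to 3 lower with siSFPQ-2, and 1 to 2 higher and 1 to 3 lower with siSFPQ-3. The authors' deposited table gave log2 fold changes close to these for all 6 members: -2.55 for NAALADL2, 1.00 for IMMP2L, 0.50 for EXOC4, -0.57 for WWOX, -0.48 for LRP1B and -0.21 for MACROD2. Per kb of RefSeq span, the control levels of the members were low, but all 6 ranked higher by profile signal, as given below. EXOC4 had 3.11 normalized reads per kb, at the 15.8th percentile of tested features with a span. NAALADL2 had 1.83 and IMMP2L 1.80 per kb, followed by WWOX with 0.561, LRP1B with 0.312 and MACROD2 with 0.00433. NAALADL2 and IMMP2L, neighbours in that order, did not differ in the controls beyond their spread.

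**Figure D2:**
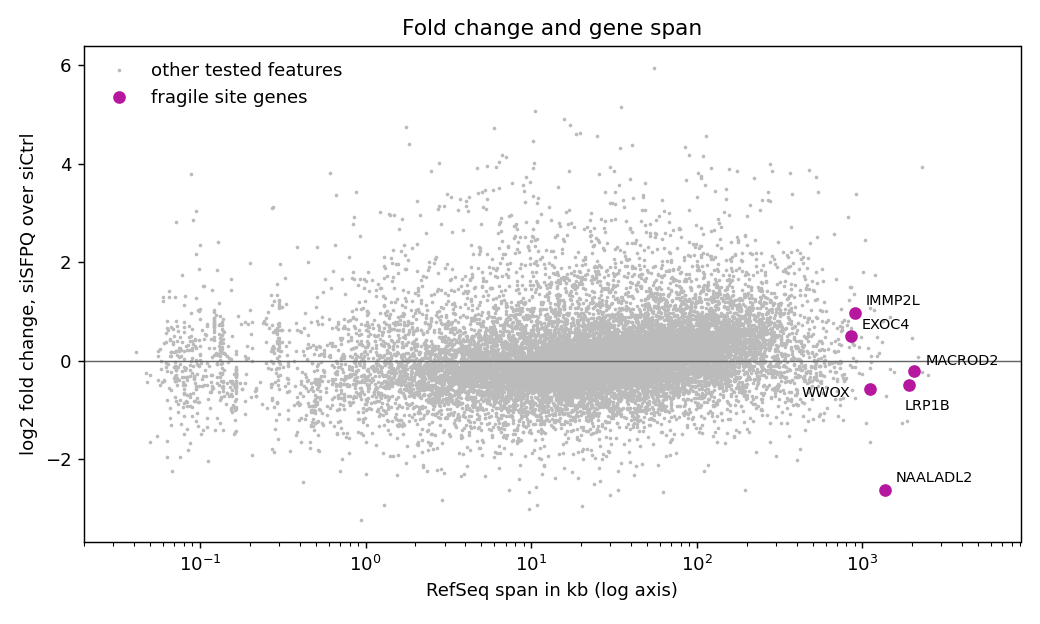
Log2 fold change of normalized reads, siSFPQ over siCtrl, against RefSeq span in kb (log axis) for each tested feature with a span (grey points), with the 6 fragile site genes in magenta. The members lie at the long end, and NAALADL2, at -2.61, is the lowest of the features that span at least 500 kb.

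Other long genes were mixed as well. Of 180 other features with a span of at least 500 kb, 68 rose and 32 fell, with a median log2 change of 0.084, against a median of -0.02 over all tested features. Without siCtrl replicate 1 the number that fell dropped to 19. Of 18 other fragile site genes tested, from a list of 25, 8 rose and 2 fell (median 0.08). DOCK4 of this list is given with its neighbour IMMP2L. CNTNAP2, a neurexin family gene, had 265 and 250.4 normalized reads in siCtrl and 3687 to 4660 in siSFPQ, a log2 change of 3.94 (SE 0.10, limma adjusted p = 9.81e-09). DPYD, which encodes the enzyme that breaks down pyrimidines, went from 1037 ± 51.0 (SD, n = 2) to 2919 ± 181 (SD, n = 4), which is a log2 change of 1.49. CTNNA3, an alpha-catenin, went from 3618 ± 422 (SD, n = 2) to 1604 ± 428 (SD, n = 4), which is a log2 change of -1.21. So the largest rise of that list exceeded any of the members, and neither of its falls reached that of NAALADL2.

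The promoter windows listed for the genes differ in sequence, though not each lies at the start of the RefSeq span. Promoter windows from 250 bases before to 50 bases after the start are shown for the 3 members whose profile changed over the whole gene, because signal near the start is set beside signal further in. The sequences are from RefSeq (GRCh38.p14), 5′ to 3′ on the strand of the gene. Capitals mark exact matches on either strand to TATAAA, the TATA box core, or GGGCGG, the GC box bound by Sp1 proteins, where adjoining matches run together.
NAALADL2: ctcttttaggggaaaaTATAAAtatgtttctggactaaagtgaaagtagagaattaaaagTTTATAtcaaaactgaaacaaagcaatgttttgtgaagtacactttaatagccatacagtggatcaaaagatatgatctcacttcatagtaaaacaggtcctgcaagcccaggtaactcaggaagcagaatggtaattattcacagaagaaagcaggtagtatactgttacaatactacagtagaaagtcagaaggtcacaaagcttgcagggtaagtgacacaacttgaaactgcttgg
IMMP2L: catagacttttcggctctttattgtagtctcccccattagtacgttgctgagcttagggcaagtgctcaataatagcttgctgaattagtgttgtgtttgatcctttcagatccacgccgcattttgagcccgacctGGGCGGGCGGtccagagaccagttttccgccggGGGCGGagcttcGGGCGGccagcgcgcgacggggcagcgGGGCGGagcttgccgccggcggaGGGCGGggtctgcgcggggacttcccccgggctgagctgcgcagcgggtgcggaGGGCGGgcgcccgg
WWOX: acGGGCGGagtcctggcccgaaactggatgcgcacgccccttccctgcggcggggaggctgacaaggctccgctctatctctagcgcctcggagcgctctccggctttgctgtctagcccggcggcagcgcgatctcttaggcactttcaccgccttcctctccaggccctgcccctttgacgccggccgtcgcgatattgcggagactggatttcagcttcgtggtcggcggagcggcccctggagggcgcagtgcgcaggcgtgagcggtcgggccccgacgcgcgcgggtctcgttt
The NAALADL2 window (chr3:174859084-174859383, + strand) lies 418 kb inside the RefSeq span, so it is the start of a shorter transcript. The sources used here do not state whether the NAALADL2 profile begins there. This window holds 0 CpG dinucleotides, 2 TATAAA matches and no GGGCGG. Both TATAAA matches lie towards its upstream end and not close to the start. The IMMP2L window (chr7:111562443-111562742, - strand) holds 31 CpG and 7 GGGCGG matches. The WWOX window (chr16:78099404-78099703, + strand) holds 38 CpG and 1 GGGCGG match. The median over 35116 promoters was 14 CpG, and 11.5% held TATAAA and 45.0% GGGCGG. CCGGAAGT, an ETS factor site, and TGACGTCA, the cyclic AMP response element, were not found in these 3 windows, and occurred in 4.14% and 1.85% of all promoters.

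The deposited profiles give signal in 500 bins per gene, of which the central 300 were taken as the gene and 100 on each side as its flanks. The sources used here do not state the size of a bin. The profiled interval of a member may also differ from its RefSeq span. WWOX stood at the 4.07th percentile by reads per kb but at the 95.3rd of profiled genes by mean profile signal. The same 2 percentiles were 10.8 and 90.4 for NAALADL2, 15.8 and 88.6 for EXOC4, and 10.6 and 71.0 for IMMP2L. They were 2.04 and 43.9 for LRP1B and 0.0480 and 51.5 for MACROD2. The profile signal of WWOX per read and per kb was 112 times that of the median gene, and that of MACROD2 was 75.8 times, NAALADL2 16.5 times, EXOC4 7.79 times, IMMP2L 1.71 times and LRP1B 0.508 times. Positions are therefore given as a share of the profiled interval and not in bases. By mean control signal the order was WWOX (149), NAALADL2 (72.1), EXOC4 (57.6), IMMP2L (7.31), DMD (5.45), AUTS2 (1.61), MACROD2 (0.780), LRP1B (0.377) and FHIT (0.296). AUTS2 and MACROD2, and LRP1B and FHIT, did not differ from their neighbour beyond the spread of the 2 controls. Genes whose mean signal over all 6 libraries, and not over the controls alone, was above the median were tested, 25986 of 51972. These included WWOX, NAALADL2, EXOC4, IMMP2L, DMD and AUTS2.

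**Figure D3:**
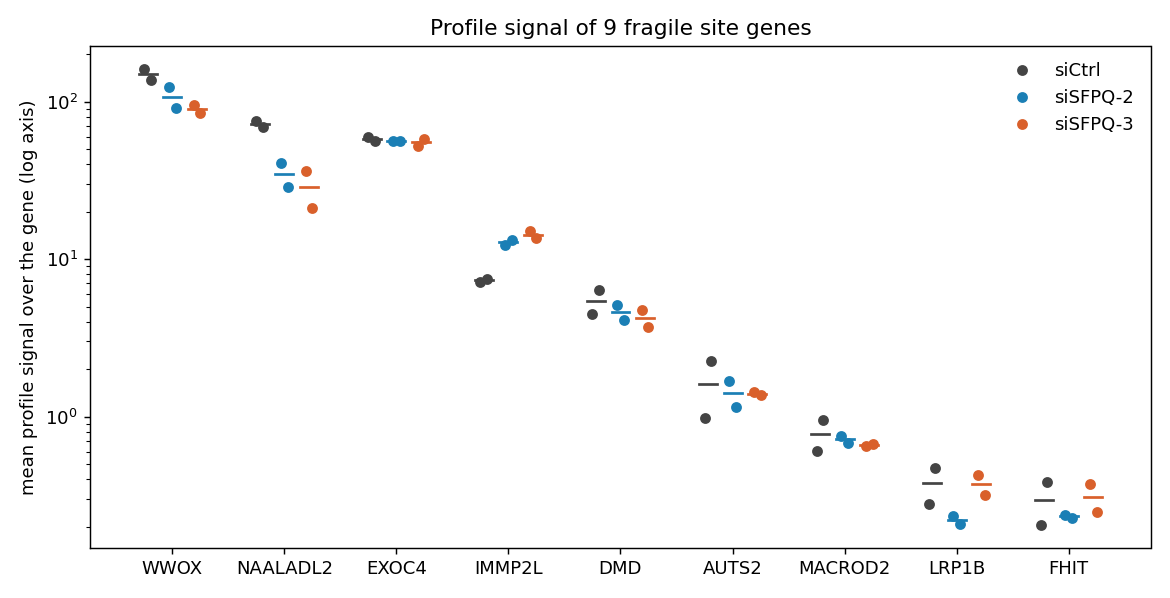
Mean profile signal over the gene bins (log axis) for all 9 fragile site genes, with 1 point per library and a line at each group mean. IMMP2L is higher and NAALADL2 and WWOX lower in every knockdown library, and the groups overlap in the other 6 genes.

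Over the whole profiled gene, IMMP2L rose and NAALADL2 and WWOX fell, and EXOC4, DMD and AUTS2 did not pass the test. This measure was added after the profiles were seen. Of the 25986 tested genes, 19.6% were higher and 13.6% lower, 33.2% in all, and among the 6 members 1 was higher and 2 lower. Over all tested genes the counts of 5092 higher and 3542 lower became 2555 and 895 without siCtrl replicate 1 and 2578 and 423 without siCtrl replicate 2. IMMP2L had 7.19 and 7.44 in siCtrl, 12.3 and 13.3 in siSFPQ-2, and 14.98 and 13.6 in siSFPQ-3 (log2 change 0.88, SE 0.11, limma adjusted p = 0.00601). NAALADL2 had 75.1 and 69.0 in siCtrl, 40.7 and 28.9 in siSFPQ-2, and 36.2 and 21.1 in siSFPQ-3. Its log2 change of -1.23 (SE 0.26, limma adjusted p = 0.0208) left it at 0.428 times the control, a smaller fall than in the read table. WWOX had 162 and 136 in siCtrl, 123 and 91.6 in siSFPQ-2, and 95.0 and 84.9 in siSFPQ-3 (log2 change -0.60, SE 0.15, limma adjusted p = 0.0339). The call for NAALADL2 was lost without siCtrl replicate 1 (adjusted p = 0.107), siCtrl replicate 2 (0.0921) or siSFPQ-2 replicate 2 (0.0528). That for WWOX was lost without siCtrl replicate 1 (0.171), siCtrl replicate 2 (0.087), siSFPQ-2 replicate 2 (0.0554), siSFPQ-3 replicate 1 (0.0555) or siSFPQ-3 replicate 2 (0.0815), and with libraries scaled to the same total profile signal (0.0555). The call for IMMP2L held without any 1 library. EXOC4, which rose in the read table, had 57.6 ± 2.56 (SD, n = 2) in siCtrl and 55.7 ± 2.45 (SD, n = 4) in siSFPQ, a log2 difference of -0.05 (limma adjusted p = 0.686).

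Along NAALADL2 the signal was lower at every position. The gene bins were divided into 10 blocks of 30 bins from the start, and in all 10 blocks every knockdown library lay below both controls. How often the groups separate in a block was not counted over all genes, and the blocks of a gene share the same libraries. Counts of separated blocks, here and below, are therefore description only. In block 1 the signal was 305 and 296 in siCtrl, 192 and 153 in siSFPQ-2, and 181 and 115 in siSFPQ-3. In block 10 it was 28.2 and 25.1 in siCtrl, 10.9 and 6.21 in siSFPQ-2, and 7.67 and 5.10 in siSFPQ-3. The log2 difference of the means went from -0.91 in block 1 to -1.83 in block 10, where signal was 3.56-fold lower. The flank before the gene also carried less signal, at 344 and 331 in siCtrl, 253 and 206 in siSFPQ-2, and 225 and 140 in siSFPQ-3, with no overlap. The position by which 50% of the gene's signal had accumulated lay 16.7 and 15% into the gene in siCtrl, 12.3 and 7.67% in siSFPQ-2, and 10.3 and 6.67% in siSFPQ-3. Every knockdown library thus had its signal further towards the start than both controls.

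The change between the ends of NAALADL2 was tested as the ratio of the 3′ segment (the last 100 gene bins) to the 5′ segment (the first 100), a measure that needs no scaling between libraries. The ratio was 0.233 and 0.210 in siCtrl, 0.158 and 0.141 in siSFPQ-2, and 0.136 and 0.123 in siSFPQ-3. The groups did not overlap, and the log2 change of -0.67 (SE 0.12) did not pass (limma unadjusted p = 0.00324, adjusted p = 0.0881). Among genes above the upper quartile of signal it passed (limma adjusted p = 0.0499). With that filter many more genes passed in both directions, as counted in the last section. Of the 6 tested members 0 passed this test in limma, the tool run on the profiles, and NAALADL2 was the 1 member with an unadjusted p under 0.05. Of all genes tested with the main filter, the median signal, 0.0231% passed as higher and 0.00385% as lower, 0.0269% in all. By segment, NAALADL2 fell in the 5′ segment (-1.09, limma adjusted p = 0.0441) and in the 3′ segment (-1.75, limma adjusted p = 0.0342), and the middle segment did not pass (-1.38, limma adjusted p = 0.0525). In the 5′ segment 10.1% of genes were lower, and in the 3′ segment 4.03%. The 3′ call was lost without either control (0.155 without siCtrl replicate 1 and 0.135 without replicate 2), either siSFPQ-2 library (0.0623 and 0.0935) or siSFPQ-3 replicate 2 (0.0669). The 5′ call was lost without either control (0.183 and 0.174), either siSFPQ-2 library (0.0703 and 0.111) or siSFPQ-3 replicate 2 (0.059).

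**Figure D4:**
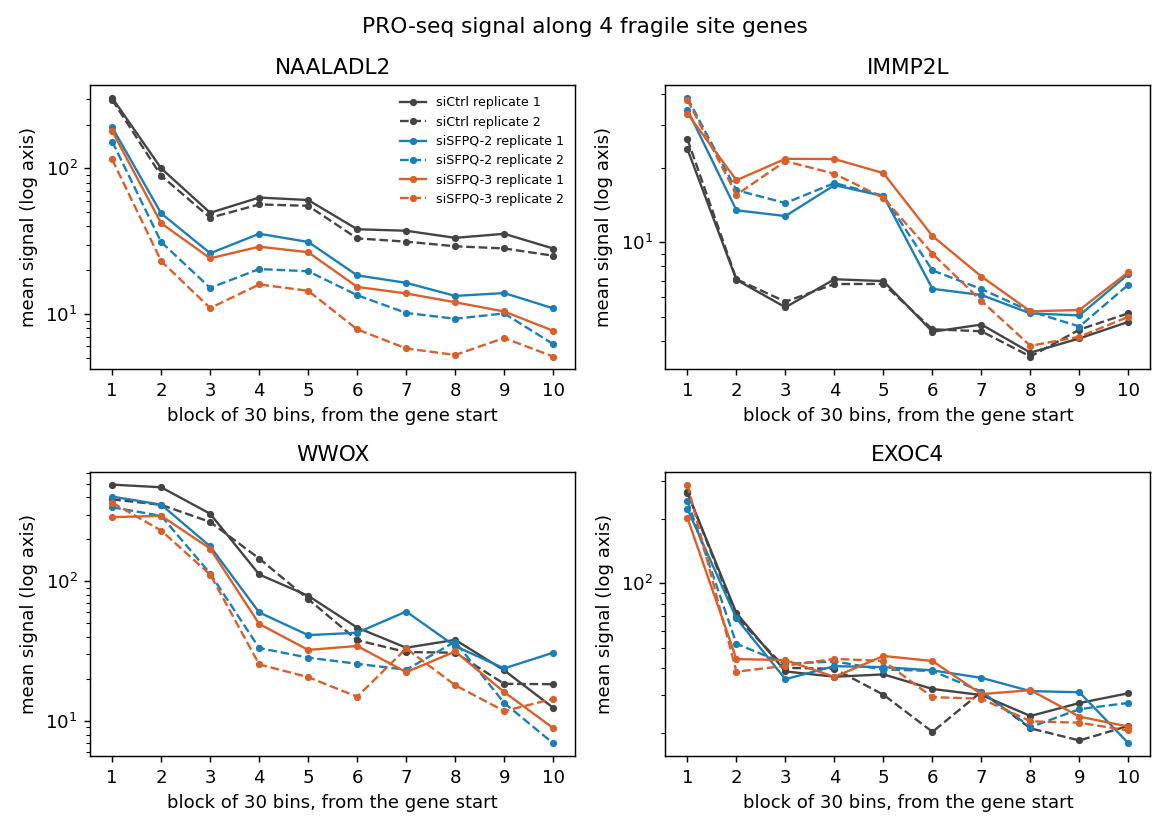
Mean PRO-seq signal (log axis) in 10 blocks of 30 bins from the gene start for NAALADL2, IMMP2L, WWOX and EXOC4, with 1 line per library. The NAALADL2 knockdown lines lie below both controls in all 10 blocks, the IMMP2L lines lie above them in 8, the WWOX lines lie below in blocks 3 to 5, and the EXOC4 lines mostly cross.

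In IMMP2L the rise was largest inside the gene and not at its start. The log2 difference of the means was 0.52 in block 1, 1.16 in block 2, 1.65 in block 3, 1.44 in block 4 and 1.24 in block 5, and it went down to 0.16 in block 9. In block 3 the signal was 5.46 and 5.75 in siCtrl, 12.8 and 14.4 in siSFPQ-2, and 21.8 and 21.3 in siSFPQ-3, and the siSFPQ mean was 3.14-fold the control. Knockdown libraries lay above both controls in 8 of 10 blocks, and in blocks 9 and 10 the groups overlapped. Before the gene the flank carried 162 and 181 in siCtrl, 187 and 187 in siSFPQ-2, and 138 and 180 in siSFPQ-3, and the groups overlapped there.

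The segments of IMMP2L gave the same course. The 5′ segment rose by 0.89 (SE 0.11, limma adjusted p = 0.013) and the middle segment, added after the profiles were seen, was 2.21-fold the control (limma adjusted p = 0.0174). In these segments 13.0% and 14.3% of all genes were higher, and in the middle segment 4.74% were lower. The 3′ segment was at 4.12 and 4.30 in siCtrl, 6.01 and 5.75 in siSFPQ-2, and 6.02 and 4.40 in siSFPQ-3, and its difference of 0.38 did not pass (limma adjusted p = 0.223). The ratio of 3′ to 5′ segment was 0.347 and 0.343 in siCtrl, 0.299 and 0.256 in siSFPQ-2, and 0.250 and 0.179 in siSFPQ-3, with no overlap. Its log2 change of -0.51 (SE 0.23) did not pass (limma adjusted p = 0.297). The 5′ call was lost without siCtrl replicate 1 (0.0743) or siCtrl replicate 2 (0.0739), and the middle call without siCtrl replicate 1 (0.0833), siCtrl replicate 2 (0.0863) or siSFPQ-2 replicate 2 (0.0623).

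WWOX had its difference in a stretch inside the gene. In block 4 the signal was 112 and 146 in siCtrl, 60.0 and 33.4 in siSFPQ-2, and 49.6 and 25.5 in siSFPQ-3, a log2 difference of -1.62, or 3.06-fold lower. Blocks 3 (-0.99) and 5 (-1.32) also did not overlap, and the other 7 blocks did. In block 1 the difference was -0.33 and in block 10 it was -0.01. The 5′ segment (-0.56, limma adjusted p = 0.0561), the middle segment (-1.12, adjusted p = 0.0801) and the 3′ segment (-0.22, adjusted p = 0.527) did not pass. Among genes above the upper quartile of signal the 5′ segment (limma adjusted p = 0.0255) and the middle segment (0.0293) passed. The share of all genes called with that filter is not given here. The ratio of 3′ to 5′ segment was 0.0650 and 0.0766 in siCtrl, 0.114 and 0.0887 in siSFPQ-2, and 0.0818 and 0.0768 in siSFPQ-3, the last of these barely above the higher control, and its log2 change of 0.34 did not pass (limma adjusted p = 0.286). In the 5′ segment the only members called were IMMP2L, higher, and NAALADL2, lower.

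Along EXOC4 the groups separated in 2 of 10 blocks, in opposite directions. In block 2 the signal was 72.5 and 69.6 in siCtrl, 68.5 and 52.1 in siSFPQ-2, and 44.2 and 38.6 in siSFPQ-3, and every knockdown library lay below both controls, siSFPQ-2 replicate 1 only just. In block 5 it was 37.5 and 30.1 in siCtrl, 40.5 and 39.5 in siSFPQ-2, and 45.7 and 43.3 in siSFPQ-3, and every knockdown library lay above. In the other 8 blocks the groups overlapped. No segment of EXOC4 passed the test: the difference was -0.18 in the 5′ segment (limma adjusted p = 0.309), 0.30 in the middle (adjusted p = 0.167) and 0.06 in the 3′ segment (adjusted p = 0.787).

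**Figure D5:**
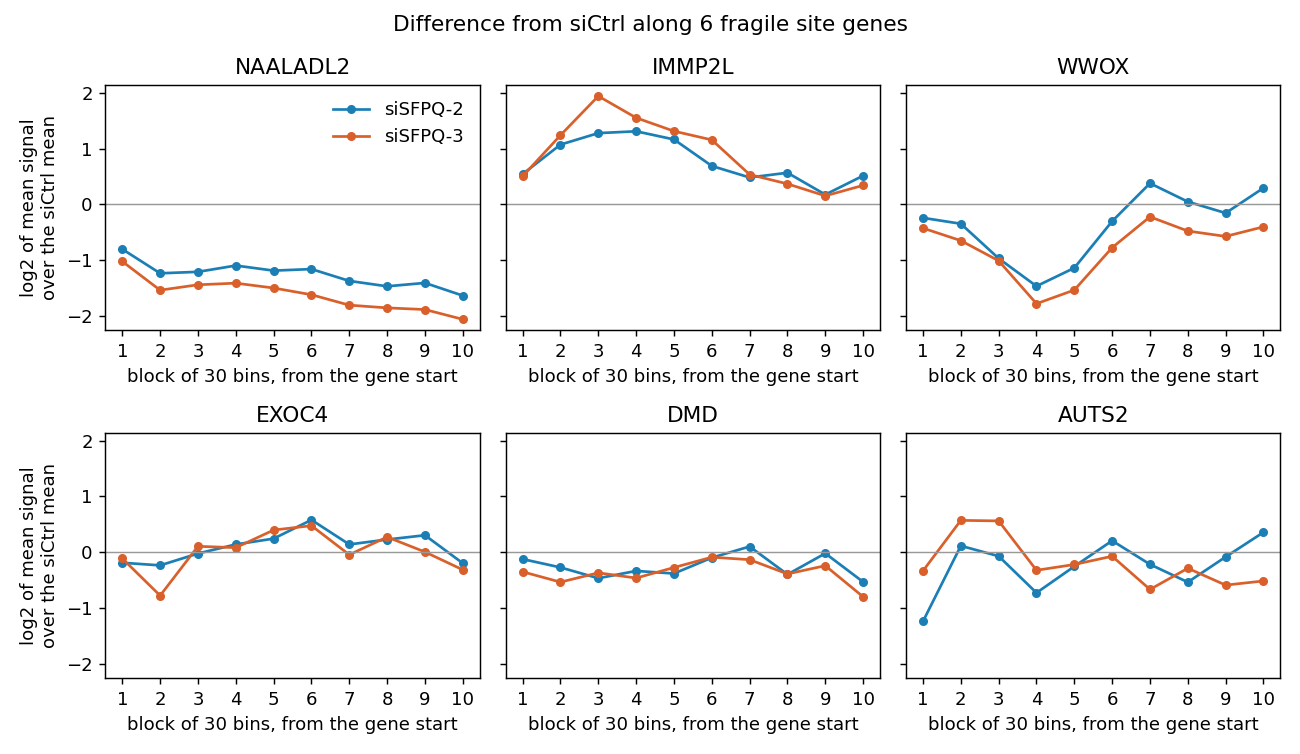
Log2 of each siRNA group's mean signal over the siCtrl mean in 10 blocks of 30 bins, for the 6 fragile site genes whose profiles were tested. Both lines lie below 0 in all 10 blocks of NAALADL2 and above 0 in all 10 of IMMP2L, where siSFPQ-3 is higher in block 3 (1.94 against 1.28). In WWOX both reach their lowest point in block 4 (-1.47 and -1.78) and have opposite signs in block 7 (0.38 and -0.22).

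In the profiles of the other genes no change passed, or the signal lay below the level tested. DMD had 4.49 and 6.41 in siCtrl, 5.09 and 4.08 in siSFPQ-2, and 4.77 and 3.72 in siSFPQ-3, and its groups overlapped (log2 difference -0.29, limma adjusted p = 0.385). In 4 of its 10 blocks all knockdown libraries lay below both controls, and the largest such difference was -0.66. AUTS2 had 0.985 and 2.25 in siCtrl and 1.15 to 1.67 in siSFPQ, and all 10 of its blocks overlapped. Its controls differed from each other more than either siRNA group did from their mean. By their mean over all 6 libraries, FHIT, LRP1B and MACROD2 lay below the level tested. LRP1B, which fell in the read table, had 0.280 and 0.474 in siCtrl, 0.235 and 0.208 in siSFPQ-2, and 0.428 and 0.320 in siSFPQ-3, and the groups overlapped. FHIT had 0.206 and 0.387 in siCtrl and 0.228 to 0.372 in siSFPQ, and 44 to 72 of its 300 gene bins were at 0 in each library. Its flank before the gene was at 0 in all 6 libraries. MACROD2 had 0.604 and 0.955 in siCtrl and 0.649 to 0.754 in siSFPQ, and the groups overlapped. Its ratio of 3′ to 5′ segment was 0.733 and 0.642 in siCtrl and 0.897 to 1.16 in siSFPQ. That of LRP1B was 1.01 and 0.939 in siCtrl and 0.159 to 0.897 in siSFPQ. In neither ratio did the groups overlap, and the genes moved in opposite directions. Neither ratio was tested, because the signal was too low.

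Other very long genes were set beside these profiles. Over 198 tested genes with a RefSeq span of at least 500 kb, the median log2 change of the 3′ to 5′ ratio was -0.14, against 0.13 over all 25986 tested genes, and 124 of the 198 lay below 0. NAALADL2 (-0.67) and IMMP2L (-0.51) lay below that median, and WWOX (0.34), EXOC4 (0.25), DMD (-0.01) and AUTS2 (-0.06) above it.

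Of 82 RefSeq genes that lie wholly inside a member, 1 was tested: LRRN3, a gene for a leucine-rich repeat membrane protein inside IMMP2L (chr7:111091127-111125454). LRRN3 had 1.59 and 6.65 normalized reads in siCtrl, 44.6 and 34.3 in siSFPQ-2, and 166 and 232 in siSFPQ-3. Every knockdown library lay above both controls, and both siSFPQ-3 libraries above both siSFPQ-2 libraries, the same order of groups as in its host. The log2 change was 4.32 (SE 0.39, limma adjusted p = 1.35e-05), and its size depends on the added 1 because the controls are so low. The difference between the siRNAs, 2.30, did not pass (limma adjusted p = 0.0918). The sources used here do not state whether counting used the strand, so reads of LRRN3 may include IMMP2L reads over the same 34328 bases. IMMP2L had 1.80 normalized reads per kb of RefSeq span in siCtrl. How many LRRN3 reads came from IMMP2L was not tested.

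Beside the members, the nearest tested coding genes were mixed. DOCK4, a guanine nucleotide exchange factor 163.6 kb from IMMP2L and a fragile site gene itself, had 600.1 and 624 normalized reads in siCtrl and 2274 to 4436 in siSFPQ (log2 change 2.39, SE 0.17, limma adjusted p = 1.97e-06). DNAJB9, a chaperone gene 2088 kb on the other side, differed by 0.01 (adjusted p = 0.932). TBL1XR1, a gene for a subunit of nuclear corepressor complexes 1209 kb from NAALADL2, went from 3269 ± 20.2 (SD, n = 2) to 6176 ± 1058 (SD, n = 4), the opposite direction to NAALADL2 (log2 change 0.90, limma adjusted p = 5.28e-05). NLGN1, a synaptic adhesion gene 146.6 kb on its other side, differed by -0.12 (adjusted p = 0.485). Beside EXOC4, LRGUK (-0.33, adjusted p = 0.184) and CHCHD3 (-0.09, adjusted p = 0.592) did not pass, and beside FHIT neither did PTPRG (-0.05, adjusted p = 0.864).

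Partners and relatives of the members were counted from lists, to be read against the 24.8% of all tested features that were higher and the 23.2% that were lower. Among genes that act with dystrophin at the membrane, 3 rose and 2 fell of 8 tested (17 listed, median log2 change 0.27). UTRN, the dystrophin paralogue utrophin, went from 2725 ± 291 (SD, n = 2) to 5484 ± 628 (SD, n = 4), which is a log2 change of 1.01 (limma adjusted p = 4.18e-05). DTNB, a dystrobrevin, went from 1359 ± 159 (SD, n = 2) in siCtrl to 3328 ± 108 (SD, n = 4) in siSFPQ (limma adjusted p = 4.13e-06). The falls in that list were lost without either control library: SGCB, a sarcoglycan with a log2 change of -0.44, had a limma adjusted p of 0.0684 without siCtrl replicate 1 and 0.0776 without replicate 2. Of the 8 exocyst genes other than EXOC4, 5 rose (median 0.29), but the number that rose was 3 without siCtrl replicate 1 and 1 without siCtrl replicate 2. The call that held in both was EXOC6, with 825 and 757 normalized reads in siCtrl and 1668 to 3070 in siSFPQ (log2 change 1.51, limma adjusted p = 1.13e-06).

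Of 11 Polycomb partners of AUTS2, 3 rose (median 0.05), and 2 rose without siCtrl replicate 1. YAF2, a subunit of variant Polycomb complexes, went from 1351 ± 79.5 (SD, n = 2) to 2655 ± 182 (SD, n = 4), which is a log2 change of 0.97 (limma adjusted p = 1.67e-05), and its paralogue RYBP rose by 0.80 (adjusted p = 0.000281). Of 12 tested members of the LDL receptor family, 6 rose and 3 fell (median 0.17). LRP6, a Wnt coreceptor, rose by 0.74 (limma adjusted p = 0.000155). The number that fell was 1 without siCtrl replicate 1 and 0 without siCtrl replicate 2.

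Relatives of NAALADL2 and FHIT counted 1 higher and 3 lower of 5 tested (median -0.40). FOLH1, the glutamate carboxypeptidase of the NAALADL2 family, had 6727 and 5331 normalized reads in siCtrl, 3416 and 2290 in siSFPQ-2, and 3422 and 1979 in siSFPQ-3, a log2 change of -1.15 (SE 0.21, limma adjusted p = 0.00146). HINT3, a relative of FHIT, rose by 0.66 (limma adjusted p = 0.00101). Of 6 tested genes of ADP-ribose signalling related to MACROD2, 2 rose and 3 fell (median -0.06). GDAP2, a macrodomain gene, rose by 0.48 (limma adjusted p = 0.00303), and none of the falls in this list held without siCtrl replicate 1.

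Genes that protect fragile sites during replication were counted in the same way. Of 39 tested, 23 fell and 3 rose (median log2 change -0.47), against 23.2% lower among all features. The number that fell was 13 without siCtrl replicate 1 and 18 without siCtrl replicate 2. ATRIP, the partner of the checkpoint kinase ATR, had 1231 and 1213 normalized reads in siCtrl and 670.1 to 724 in siSFPQ, with no overlap, a log2 change of -0.80 (SE 0.09, limma adjusted p = 6.18e-05). TIMELESS, a replication fork protection gene, went from 1120 ± 27.2 (SD, n = 2) to 539 ± 74.5 (SD, n = 4), which is a log2 change of -1.06 (limma adjusted p = 8.07e-05). RNASEH2A, the catalytic subunit of an enzyme that removes RNA from DNA hybrids, went from 378 ± 26.3 (SD, n = 2) to 154 ± 27.5 (SD, n = 4), which is a log2 change of -1.30 (limma adjusted p = 1e-04). TOP1, the topoisomerase that relieves supercoils ahead of polymerases, went from 1814 ± 152 (SD, n = 2) to 3668 ± 426 (SD, n = 4), which is a log2 change of 1.01 (limma adjusted p = 1.83e-05). TP53BP1, a mediator of break repair, rose by 0.71 (adjusted p = 0.000357). ATR itself differed by -0.01 and CHEK1, its target kinase, by 0.01.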

How the data were processed

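PRO-seq libraries of 6 SBC-3 samples were grouped by siRNA from their titles. The submitters' processing notes name DESeq2 1.38.1, SAMtools 1.3.1, cutadapt 1.14, Bowtie2 and UMI-tools, with hg38 and dm6 as builds. The sources used here do not state the role of dm6, the part of a gene counted, the use of strand or the scaling of the profiles. The authors deposited normalized signal per feature (normalized reads) and, per library, profile signal in 500 bins per gene. All values were whole multiples of 1 read (100%, tolerance 0.1), so whole read counts were recovered from the deposited values for edgeR 4.0.16 (5521 features higher and 5010 lower) and DESeq2 1.42.0 as alternatives. The deposited log2 fold changes and adjusted p-values served for comparison only.

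After 240 repeats of 26067 lines were removed, limma 3.58.1 in R 4.3.3 (eBayes with trend, 1 fit of 3 groups) was run on log2(value + 1) of 21773 features with at least 10 normalized reads in at least 2 libraries. The siSFPQ comparison is the mean of both siRNA groups minus siCtrl. Profile means were tested the same way as log2(signal + 0.05355), the added constant being the 5th percentile of non-zero gene means. The genes tested were those with a mean over all 6 libraries above the median signal of 0.7686. Spans and promoters came from RefSeq (GRCh38.p14), matched by symbol, with a span for 19181 of 25827 features. Totals and counts of few reads cover counting error only. Scripts were tested on simulated data. Replicate numbers were not used as pairs.

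Besides the members, up to 3 genes per list and direction with the smallest p were named, and every tested gene inside or beside a member, without clone names. ATR, CHEK1, SGCB and the marker genes were chosen after their values were seen. Fewer were named where a call was lost without a library, and in some lists also where the calls held. The members and lists were chosen with earlier results of these data known. Of the lists, 25 other fragile site genes, 39 maintenance genes, 17 of the dystrophin complex, 8 of the exocyst, 11 Polycomb partners, 13 of the LDL receptor family, and 7 relatives each of NAALADL2 and FHIT and of MACROD2 were looked up; some were not analysed here.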

Additional observations from a re-analysis of the deposited data

How the results depend on the processing

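The read-based changes of NAALADL2 (-2.85 to -2.37) and IMMP2L (0.93 to 1.03) passed in all 15 alternatives: 2 other added constants, 2 filters, 2 scalings, edgeR, DESeq2, the replicate block and leaving out each of 6 libraries. Leaving out 1 library gave 1 to 2 members higher and 2 to 3 lower for siSFPQ and for siSFPQ-2, and 1 to 2 higher and 1 to 3 lower for siSFPQ-3. For siSFPQ-3 against siSFPQ-2, 1 member (IMMP2L) was higher with DESeq2 and with the replicate block (adjusted p = 0.0143), against 0. In the 5′ segment, leaving out 1 library gave 0 to 1 higher and 0 to 1 lower; 0 were lower with signal above 0 in every library, with the outermost 60 gene bins on each side, and with the same total profile signal; 2 were lower (NAALADL2 and WWOX) with the upper quartile of signal and with the replicate block; and 0 were higher with the upper quartile, since IMMP2L lay below that filter. The shares of all genes called in the 5′ segment with the upper quartile and with the replicate block are not given here. The counts of members with these settings are therefore description only. In the 3′ segment leaving out 1 library gave 0 to 1 lower. The 3′ to 5′ ratio had 1 member lower (NAALADL2) with the upper quartile, where 832 genes were higher and 159 lower, against 6 and 1. No called value changed sign. The replicate numbers did not pair the libraries of all 3 groups. Deviations of same-numbered libraries correlated at 0.0529 and 0.0587 between siCtrl and siSFPQ-2 or siSFPQ-3, but at 0.382 between siSFPQ-2 and siSFPQ-3. The labels do not state a pairing, and the block is given only here. Over all features, 5044 were lower and 2433 without siCtrl replicate 1 or 2509 without siCtrl replicate 2. In the profiles, 3385 genes were higher and 2628 lower in the 5′ segment, against 799 and 181 without siCtrl replicate 1 and 704 and 104 without replicate 2, and 1699 lower without the first and last 15 bins. In the 3′ segment 3370 and 1048 became 428 and 74, and 351 and 54, and in the middle segment 3723 and 1232 became 883 and 145, and 907 and 77. Except where stated, the cause was not tested. With 2 controls, each control decides many calls, and low counts limit MACROD2 in the read table.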
